A study of Mus musculus with 4 samples.

Results

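Tumor microglia rich in MHC class II were 697 cell barcodes of the 3 glioma libraries, out of 979 tumor microglia, 7172 tumor barcodes and 8572 barcodes in all 4 libraries. A barcode counted as microglia when it held at least 200 genes, at most 10% mitochondrial UMIs (unique molecular identifiers, each the mark of 1 captured RNA molecule), at least 3 UMIs of Tmem119, P2ry12, Gpr34, Sparc and Sall1 together and no UMI of Cd3d, Cd3e or Cd3g. It counted as class II-rich when H2-Aa, H2-Ab1 and H2-Eb1 together gave at least 5 UMIs. These measured values chose the cells, so the levels of the rule's genes among them are a description and support nothing else. The IgG library gave 233 of them, anti-CTLA-4 gave 187 and anti-CTLA-4 plus CD4 depletion gave 277.

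The study profiled sorted immune cells of the mouse brain by droplet single-cell RNA sequencing. Cells of the line glioma-005 had been injected into the hippocampus of C57BL/6J mice aged 8 to 12 weeks, and antibodies were given into the peritoneum from day 7 after implantation. The IgG group received rat IgG2a isotype control (clone LTF-2), the anti-CTLA-4 group a Syrian hamster antibody against the T cell checkpoint receptor CTLA-4 (clone 9H10), and the depletion group that antibody together with an anti-CD4 antibody (clone GK1.5), which removes CD4 cells. Healthy brain without tumor served as control. Tumors were collected at day 35, each tumor library pooled 3 tumors, and microglia (CD45int CX3CR1+), CD45hi CD11b+ myeloid cells, CD45hi CD3+ T cells and the remaining CD45hi immune cells were mixed equally within each library. Barcodes carry no label of the sorted fraction, so the rule on transcripts stands in for the microglia gate.

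Microglia are the resident macrophages of the brain, and Tmem119, P2ry12 and Gpr34 are transcripts of their homeostatic state. MHC class II molecules, built from an alpha and a beta chain and guided through the cell by the invariant chain Cd74, show peptides to CD4 T cells. Resting microglia carry little of them. Interferon-gamma, a cytokine of T cells and NK cells, induces them through the class II transactivator Ciita, which is recruited to a shared promoter module of X and Y boxes.

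The 3 chains of the rule lie side by side on mouse chromosome 17 (mm10): H2-Ab1 (34257689 to 34269419), encoding the beta chain of I-A, H2-Aa (34282744 to 34287823), encoding its alpha chain, and H2-Eb1 (34305867 to 34316674), encoding the beta chain of I-E. All 3 chains had the same order of levels over the 3 tumor libraries. The promoters of H2-Aa and H2-Eb1 are shown, as H2-Ab1 had no promoter entry. Each is the 100 bases before the start of transcription (RefSeq, GRCm38.p6), with the 8 letters CTGATTGG, a Y box sequence, in capitals.
H2-Aa, chr17:34287824-34287923, minus strand: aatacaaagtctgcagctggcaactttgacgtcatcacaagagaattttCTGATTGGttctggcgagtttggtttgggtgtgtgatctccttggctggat
H2-Eb1, chr17:34305767-34305866, plus strand: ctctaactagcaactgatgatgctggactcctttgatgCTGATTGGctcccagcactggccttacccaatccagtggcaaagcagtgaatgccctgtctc
The first letter of CTGATTGG stands 51 bases before the start in H2-Aa and 62 bases before it in H2-Eb1. On either strand within 250 bases before the start, CTGATTGG was found in 1258 of 32851 RefSeq promoters (3.83%). Of 10 class II genes searched, H2-Aa, H2-Eb1, H2-Oa and H2-Eb2 held it, H2-DMa, H2-DMb1, H2-DMb2 and H2-Ob did not, and H2-Ab1 and Cd74 had no entry. A match in letters is a description and not a measured binding site.

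The 4 libraries held 1420 to 3916 barcodes and 7950206 to 21471565 UMIs, and the class II-rich microglia held 1781422 (IgG), 1376617 (anti-CTLA-4) and 2493282 (depletion) UMIs. Their median depth was 6383, 5559 and 7278 UMIs a barcode. Each group had 1 library, so no difference could be set against the spread between animals and none carries a p-value. Intervals are exact 95% intervals for counting error only. A few cells can hold most UMIs of a gene, so these intervals are too narrow. Of 9 barcode sequences shared by any pair of libraries, 2 involved these cells, both between anti-CTLA-4 and depletion.

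Most tumor microglia of the IgG and anti-CTLA-4 libraries were class II-rich, and about as many were rich as poor with depletion. The share was 92.1% for IgG (233 of 253, 95% Clopper-Pearson interval 88.1 to 95.1%), 90.8% for anti-CTLA-4 (187 of 206, 86.0 to 94.4%) and 53.3% for depletion (277 of 520, 48.9 to 57.6%), against 0.252% (2 of 795, 0.0305 to 0.906%) in healthy brain. The intervals of IgG and anti-CTLA-4 overlapped and lay above that of depletion. Among T cells, defined by at least 2 UMIs of the Cd3 genes and none of the microglia genes and not expected to make these chains, 4.76%, 6.52% and 2.33% reached 5 class II UMIs in the tumor libraries and 0.826% in healthy brain, at median depths of 5225, 5398, 4057 and 6064 UMIs.

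At equal depth depletion was again the lowest of the tumor libraries. Thinned to 1000 UMIs, microglia had median class II counts of 12 (IgG), 14 (anti-CTLA-4), 1 (depletion) and 0 (healthy brain) UMIs. At least 1 class II UMI was then seen in 95.4% (of 238), 93.7% (of 205), 60.0% (of 512) and 2.58% (of 774). Left out as shallower were 15, 1, 8 and 21 microglia. T cells thinned the same way gave 15.1%, 14.2%, 7.57% and 1.65%. Unthinned, the median over all microglia was 61, 69.5, 5.5 and 0 class II UMIs, and 8, 4, 88 and 732 of them had none.

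**Figure D1:**
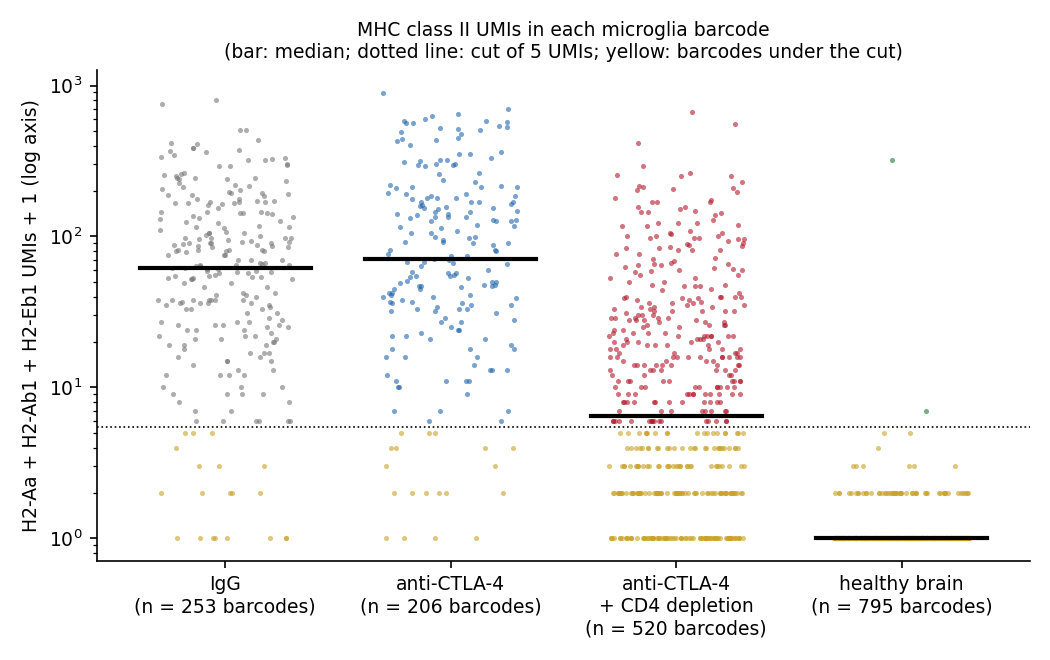
MHC class II UMIs (H2-Aa, H2-Ab1 and H2-Eb1 summed, plus 1, log axis) in each microglia barcode of the 3 tumor libraries and healthy brain. Bars are medians over all microglia (61, 69.5, 5.5 and 0 before adding 1), the dotted line is the cut of 5 UMIs, and 243 of 520 microglia of the depletion library lie under it.

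Within the class the cells spread widely. With IgG the rich microglia held 5 to 807 class II UMIs with a median of 69, with anti-CTLA-4 5 to 898 with a median of 89, and with depletion 5 to 663 with a median of 23. Per 10000 UMIs the medians were 128, 158 and 35.4. The ranges overlapped almost entirely, and the upper quartile with depletion (61 UMIs) lay below the medians of the other libraries. The cut fell in a sparse part of the range with IgG and anti-CTLA-4, where 3 and 3 microglia held 4 UMIs and 6 and 2 held 5. With depletion 19 held 4 and 17 held 5, so there the cut divides neighbouring cells.

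The label of microglia was set against markers. All 10 microglia markers were detected in the rich cells of each tumor library. Of these, 5 are genes of the rule, which chose the members. The macrophages compared below had to lack these 5, so that contrast is partly fixed by the rule. They summed to 13643 (IgG), 15744 (anti-CTLA-4) and 9130 (depletion) CPM (CPM, UMIs scaled to a total of 1000000 in the cells summed), against 816, 596 and 685 in tumor macrophages with at least 5 C1q UMIs and none of the microglia genes, and 35562 in healthy microglia. Monocyte-derived macrophage markers (10 of 10 detected) summed to 2848, 4096 and 3907 CPM, with medians per cell of 13.5, 9.40 and 16.8 per 10000 UMIs against 97.2, 136 and 109 in those macrophages. In 22, 12 and 50 members (9.44%, 6.42% and 18.1%) monocyte and macrophage markers exceeded the microglia markers outside the rule. Fewer than 10 UMIs of the rule's microglia genes were held by 72, 28 and 84 members (30.9%, 15.0% and 30.3%), a smaller share with anti-CTLA-4. T cell markers summed to 5.05, 6.54 and 7.22 CPM with 4 or 5 of 8 at 0, and NK cell markers to 305, 113 and 25.7 CPM with none of 8 at 0. The Cd3 genes among the T cell markers were at 0 by the rule. Neutrophil markers summed to 88.1, 4.36 and 3631 CPM with 4, 6 and 1 of 8 at 0. In the depletion library 22 members with at least 10 S100a8 and S100a9 UMIs held 98.7% of the UMIs of those genes. Dendritic cell markers summed to 106, 98.1 and 39.7 CPM, B cell markers to 50.5, 66.8 and 43.7, border macrophage markers to 41.5, 50.9 and 82.6, and endothelial markers to 574, 459 and 516. Oligodendrocyte markers reached 29.7 to 49.4 CPM, astrocyte markers 5.09 to 9.63 and tumor or progenitor markers 2.41 to 7.26.

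The genes of the rule themselves differed in level among the rich cells of the 3 libraries. H2-Aa stood at 5240 (IgG), 7047 (anti-CTLA-4) and 2071 (depletion) CPM, H2-Ab1 at 5131, 7710 and 2034, and H2-Eb1 at 4055, 6170 and 1661. Healthy microglia held 30.8, 36.2 and 28.0 CPM of the 3 genes. Summed, the chains reached 14427, 20927 and 5765 CPM, which is 1.45-fold (95% CI 1.43 to 1.48) higher with anti-CTLA-4 than with IgG and 3.63-fold (3.56 to 3.70) lower with depletion than with anti-CTLA-4. Anti-CTLA-4 was highest for each chain and depletion lowest. Over all microglia, without the cut, the sums were 13829, 19841 and 3782 CPM and the second difference was 5.25-fold (5.14 to 5.35).

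The microglia genes of the rule were also highest with anti-CTLA-4 and lowest with depletion. Values below run IgG, anti-CTLA-4, depletion. Tmem119 stood at 653, 765 and 406 CPM, P2ry12, a purinergic receptor, at 683, 992 and 365, Gpr34 at 529, 809 and 248, Sparc at 1280, 1547 and 1097, and the transcription factor gene Sall1 at 192, 206 and 81.4. Each was lower than in healthy microglia, which held 1414, 3428, 2171, 4268 and 466 CPM.

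Macrophages of the same tumors held the chains at levels that differed less between libraries. The 75, 102 and 200 macrophages without microglia UMIs summed to 16431, 16850 and 11679 CPM of the 3 chains, 1.03-fold (95% CI 1.0 to 1.05) higher with anti-CTLA-4 and 1.44-fold (1.41 to 1.47) lower with depletion. The cut on these chains applied to the rich microglia and not to the macrophages, so their levels are not ranked against each other. The difference between the cell classes was not tested, since each class had 1 library a group.

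**Figure D2:**
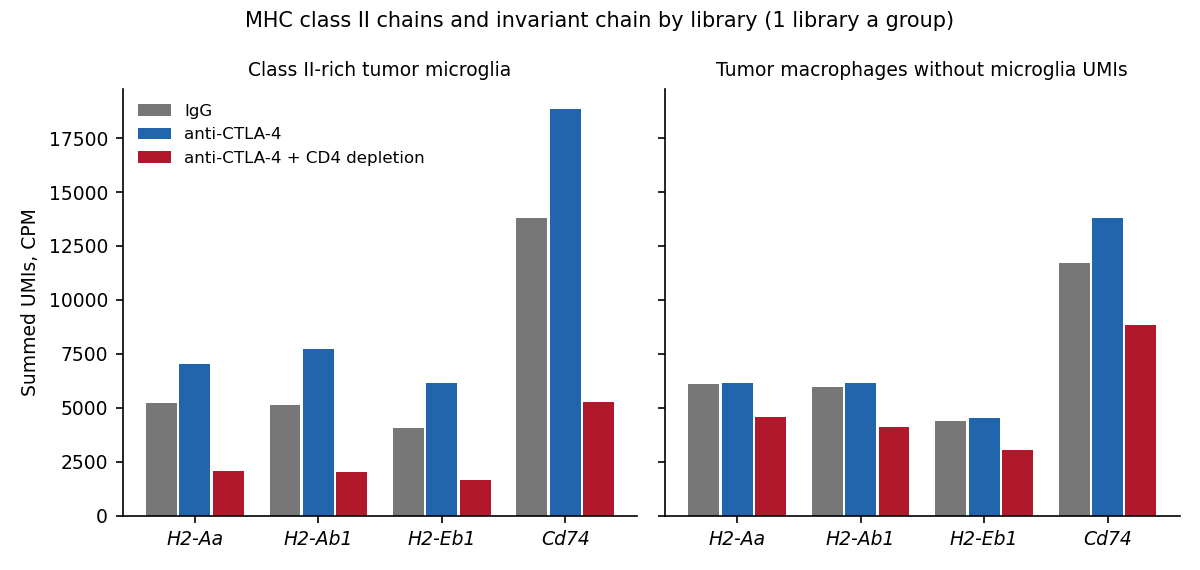
Levels of H2-Aa, H2-Ab1, H2-Eb1 and Cd74 (summed UMIs, CPM, from 0) in class II-rich microglia (left) and in tumor macrophages without microglia UMIs (right), by library. In microglia Cd74 stands at 13777, 18832 and 5289 CPM, and in macrophages at 11728, 13809 and 8826 CPM.

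Adding CD4 depletion to anti-CTLA-4 was the larger of the library comparisons, and it asks what the antibody against CD4 changed in tumors that all received anti-CTLA-4. Interferon-gamma response genes and homeostatic genes were lower with depletion, and cell cycle genes, Spp1 and the calprotectin genes were higher. The size rule asked for 50 or more UMIs over the pair of libraries, detection in 10% or more of the members on the higher side, and levels 2-fold or more apart in CPM. It was passed by 226 of 6681 genes upward (3.38%) and 371 downward (5.55%). The median gene was 0.11 lower on the log2 scale, and median-of-ratios scaling, which shifted it by 0.16, gave 357 upward and 229 downward. Without the 22 members rich in S100a8 and S100a9 the upward count was 143.

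The largest decreases with depletion were those of interferon-inducible and class II genes. Cxcl9, encoding a chemokine that attracts CXCR3-bearing T cells, stood at 744 (IgG), 1285 (anti-CTLA-4) and 242 (depletion) CPM (5.31-fold lower, 95% CI 4.83 to 5.83), and had no UMI in healthy microglia. It was seen in a minority of cells, 29.2%, 27.3% and 23.1%, and the 10 highest members held 59.5%, 76.0% and 57.6% of its UMIs. The GTPase gene Iigp1 stood at 294, 416 and 84.2 CPM (4.94-fold lower, 4.21 to 5.82) and was seen in 51.1%, 49.7% and 24.2% of members. Serpina3f, a serine protease inhibitor gene, was 9.36-fold (4.99 to 19.1) lower, Dnase1l3 7.76-fold, Ly6i 5.76-fold and the surface receptor gene Slamf8 4.6-fold. H2-Oa, a subunit of the DM inhibitor DO, was 5.10-fold (4.28 to 6.12) lower and H2-DMb2, a subunit of the peptide exchanger DM, 5.17-fold (3.46 to 7.88).

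The largest increases were those of S100a9 and S100a8, held mostly by few cells. S100a9 and S100a8, the calprotectin genes of neutrophils, gave 3836 and 4598 UMIs with depletion and 1 and 5 with anti-CTLA-4 (2118-fold, 95% CI 380 to 83677, and 508-fold, 217 to 1565), and the 10 highest members held 88.8% and 83.0% of them. T cells of the same library also carried them, with a UMI in 19.4% of T cells against 36.1% of rich microglia, and with anti-CTLA-4 in 2.57% and 3.21%. Il1r2, a decoy receptor gene, was 52.8-fold (17.9 to 258) higher, Cd24a 23.2-fold, Klf9 22.1-fold, Ecm1 17.8-fold, Ifitm1 7.72-fold and the chemokine gene Ccl4 7.93-fold (6.14 to 10.4). Without the 22 members they were 7.88-fold, 5.25-fold, 15.1-fold, 12.3-fold, 3.46-fold and 9.15-fold higher, and S100a9 and S100a8 34.1-fold and 7.48-fold. That filter cuts on S100a9 and S100a8 themselves, so it lowers their values by construction. In members thinned to 1000 UMIs Cd24a turned to a log2 ratio of -0.56. What part RNA or cells of neutrophils have in these values was not tested.

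By list, the interferon-gamma response was the most uniform. Of 26 measured members 25 were at least 1.5-fold lower and none higher, with a median log2 ratio of -1.57, where 22.3% of all 9105 genes were lower and 12.5% higher with a median of -0.11. Cxcl10, encoding the sister chemokine of Cxcl9, was the single member short of that limit, at 259, 509 and 373 CPM (1.37-fold lower). Tgtp2 (5.43-fold, 95% CI 2.91 to 10.8), Cxcl9 and Iigp1 led, followed by the guanylate-binding protein gene Gbp8 at 53.3, 57.4 and 14.0 CPM (4.09-fold, 2.71 to 6.27). The count was also 25 of 26 without the 22 members, and 26 of 26 without members in which monocyte and macrophage markers exceeded microglia markers. NK cell markers (305, 113 and 25.7 CPM) were also lower with depletion than with anti-CTLA-4, and their part in the result was not tested.

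**Figure D3:**
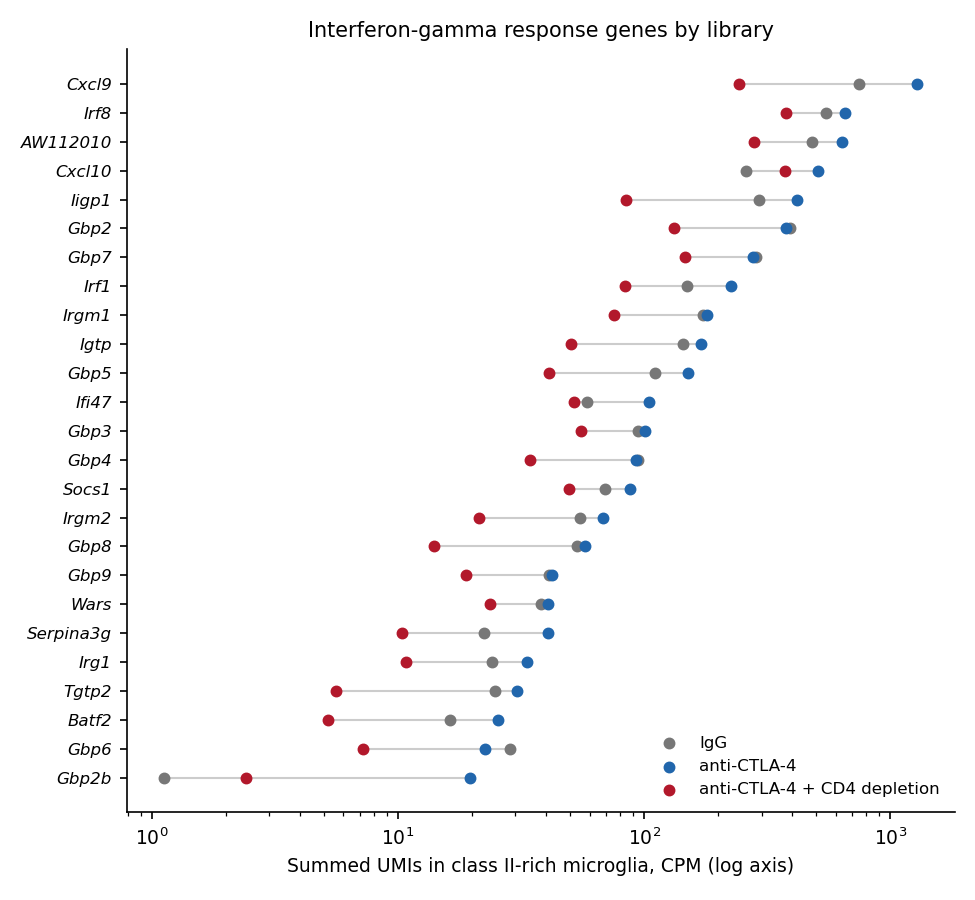
Levels (summed UMIs, CPM, log axis) of 25 of the 26 measured interferon-gamma response genes in class II-rich microglia of the 3 tumor libraries, 1 gene a line. The depletion library lies left of the anti-CTLA-4 library for all 25 genes drawn, by the least for Cxcl10 (373 against 509 CPM).

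The receptor for the cytokine differed less than its targets. Of 8 genes of the interferon-gamma receptor and its signalling, 2 were lower and 1 higher with depletion (median -0.29). Ifngr1, the ligand-binding receptor chain, stood at 466, 591 and 432 CPM (1.37-fold lower, 95% CI 1.25 to 1.5) against 954 in healthy microglia. Socs3, encoding a feedback inhibitor of cytokine signalling, was 1.88-fold (1.49 to 2.39) higher, and the phosphatase genes Ptpn2 and Ptpn6 were 1.68-fold and 1.53-fold lower.

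Class II presentation beyond the rule was lower in 8 of 13 members and higher in 1 with depletion, with a median of -0.99. Ciita stood at 25.8 (IgG), 29.8 (anti-CTLA-4) and 5.21 (depletion) CPM (5.71-fold lower, 95% CI 3.00 to 11.6, from 41 and 13 UMIs), and had no UMI in healthy microglia. In macrophages its decrease was 2.48-fold (1.51 to 4.15), with an interval that overlaps that of microglia. Cd74 stood at 13777, 18832 and 5289 CPM (3.56-fold lower, 3.49 to 3.64), where macrophages gave 1.57-fold (1.53 to 1.60). H2-Ob was 4.10-fold (2.77 to 6.17) lower. The lysosomal proteases did not follow: Ctss was 1.30-fold lower, Ctsl 1.23-fold higher and Lgmn 1.01-fold higher. The thiol reductase gene Ifi30, which unfolds antigens, stood at 913, 766 and 1073 CPM (1.40-fold higher), and Rfxap, a subunit of the RFX promoter complex, was the 1 member past 1.5-fold upward (1.64-fold, 1.06 to 2.59).

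Class I presentation, which serves CD8 T cells, was lower in 13 of 22 members and higher in none (median -0.73). H2-T23, the nonclassical class I gene for Qa-1, stood at 904, 1029 and 393 CPM (2.62-fold lower, 95% CI 2.41 to 2.85), H2-Q7 at 795, 833 and 327 (2.55-fold), and the class I transactivator Nlrc5 at 54.5, 37.1 and 14.8 (2.5-fold). The invariant light chain B2m was 1.28-fold (1.24 to 1.32) lower. With median-of-ratios scaling the median was -0.57, and in thinned cells -0.50.

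Costimulatory and inhibitory ligands for T cells were lower in 8 of 14 members and higher in none (median -0.69). Cd40, which receives help from CD4 T cells through CD40 ligand, stood at 21.9, 26.2 and 10.0 CPM (2.61-fold lower, 95% CI 1.52 to 4.53), the ICOS ligand gene Icosl at 43.8, 65.4 and 27.7 (2.36-fold, 1.71 to 3.28), the checkpoint gene Vsir was 1.89-fold and Cd86, a ligand of CD28 and CTLA-4, 1.79-fold (1.54 to 2.08) lower. Cd80, the other ligand of that pair, stood at 6.18, 5.09 and 5.62 CPM, too few UMIs to separate the libraries. With members of at least 10 microglia UMIs the median was -0.39.

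Type I interferon response genes differed less than interferon-gamma genes. With depletion 9 of 27 were lower and none higher (median -0.46), led by Oasl2 (2.22-fold, 95% CI 1.78 to 2.75) and Ifi44 (2.03-fold, 1.14 to 3.63), while Ifitm3 was 1.25-fold and Ifi27l2a 1.18-fold higher.

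Homeostatic microglia genes beyond the rule were lower with depletion in 16 of 23 members and higher in none (median -0.74). Slc2a5, the fructose transporter gene of microglia, stood at 90.9, 114 and 30.1 CPM (3.79-fold lower, 95% CI 2.86 to 5.06), Adgrg1 at 105, 163 and 45.7 (3.56-fold), the organic anion transporter gene Slco2b1 at 216, 293 and 103 (2.85-fold) and the purinergic receptor gene P2ry13 at 214, 240 and 84.6 (2.84-fold). Healthy microglia held more of each, at 327, 354, 631 and 654 CPM. Fcrls and Ltc4s did not share the order, with 279, 418 and 435 CPM for Fcrls and 254, 286 and 339 for Ltc4s. Monocyte markers summed to 866 CPM with anti-CTLA-4 and 1086 with depletion, and macrophage markers to 4096 and 3907. The median of macrophage markers per cell was 9.40 and 16.8 per 10000 UMIs. The part of these markers in the list was not tested. Without the 12 and 50 members in which they together exceeded microglia markers, 12 of 23 genes were lower (median -0.60). With members of at least 10 microglia UMIs the median was -0.55.

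**Figure D4:**
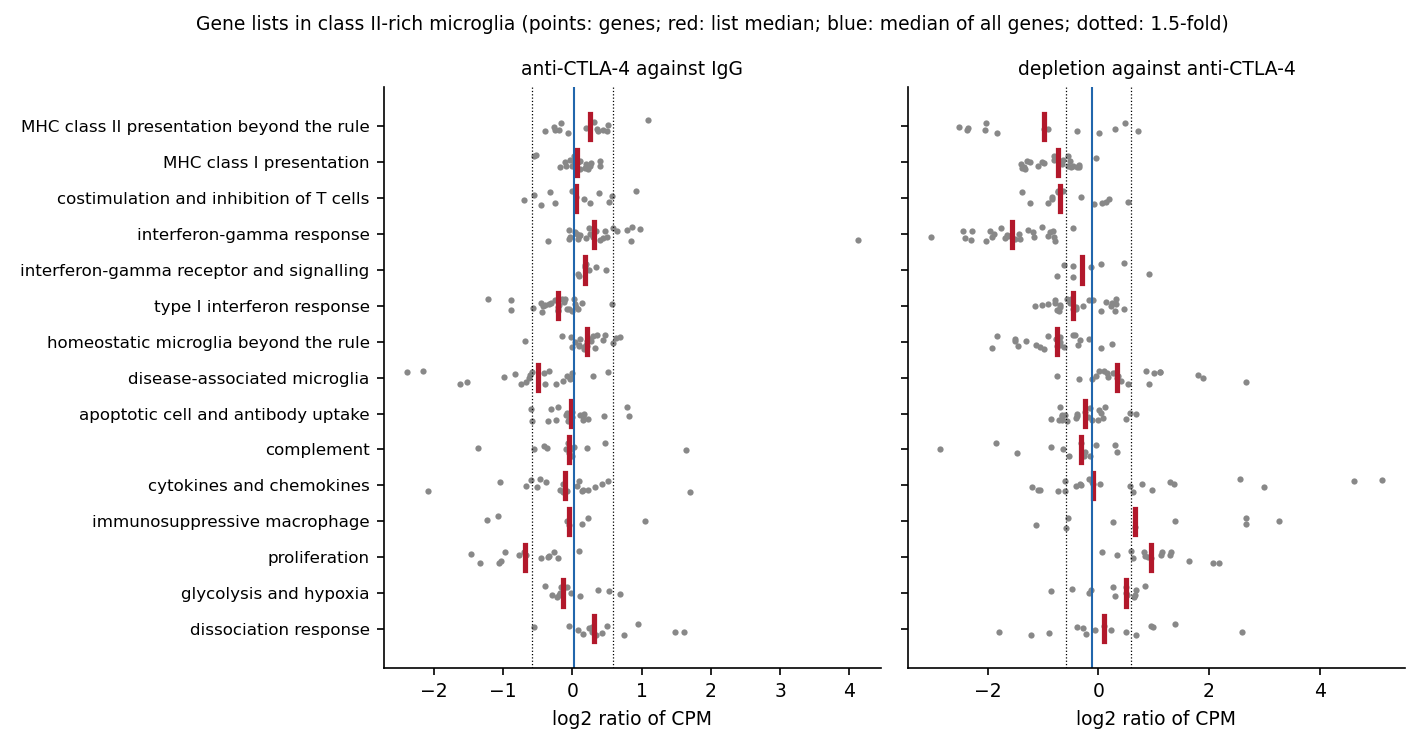
Log2 ratio of CPM for each measured member of 15 gene lists in class II-rich microglia, anti-CTLA-4 against IgG (left) and depletion against anti-CTLA-4 (right); red bars are list medians, the blue line the median of all genes and dotted lines 1.5-fold. On the right the interferon-gamma median lies at -1.57 and the proliferation median at 0.96. The point of Cxcl2, with no UMI in anti-CTLA-4, is a lower bound, and both panels share the anti-CTLA-4 library.

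Disease-associated microglia genes, a set induced around damage and plaques, went partly the other way. With depletion 8 of 22 were higher and 1, Lyz2, was lower (1.67-fold), with a median of 0.35. Spp1, encoding osteopontin, stood at 312, 102 and 645 CPM (6.34-fold higher, 95% CI 5.33 to 7.59) and was seen in 12.0%, 5.88% and 32.1% of members. The 10 highest members held 93.0%, 99.3% and 64.3% of its UMIs. Gpnmb was 3.73-fold (1.76 to 9.07) and Igf1, a growth factor gene, 3.47-fold (1.55 to 9.13) higher, both from few UMIs, and Fabp5 2.17-fold. Apoe, the lipid carrier gene, was broadly detected and stood at 11618, 7745 and 14129 CPM (1.82-fold higher, 1.79 to 1.86), with a UMI in 70.3%, 58.8% and 83.7% of thinned members. Axl, a receptor for apoptotic cells, stood at 149, 118 and 128 CPM (1.08-fold higher, 0.889 to 1.31).

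Uptake genes passed the limit about as often as all genes, of which 22.3% were lower. Of 23 uptake genes 7 were lower and 1, the bridging ligand gene Gas6, was higher (median -0.24). Sirpa, which receives the signal of Cd47, was 1.81-fold (95% CI 1.61 to 2.03), Pros1 1.65-fold and Itgb5 1.61-fold lower. Mertk, a receptor for apoptotic cells, stood at 324, 319 and 203 CPM (1.57-fold lower, 1.38 to 1.79). Of 13 complement genes 5 were lower (median -0.31). C3, the central component, stood at 137, 139 and 50.1 CPM (2.77-fold, 2.20 to 3.50) and C4b at 565, 427 and 235 (1.82-fold), and C1qa was 1.24-fold lower.

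Cytokine genes split, with 9 of 23 higher and 6 lower with depletion (median -0.10, and 0.05 with median-of-ratios scaling), and the largest rested on few cells. Il12b had 127 UMIs with depletion, of which 1 member held 125 and 1 other the rest, against 2 UMIs with anti-CTLA-4. Cxcl2, a neutrophil-attracting chemokine gene, had 133 UMIs in 13 members against 0 (at least 24.5-fold higher, against a floor of 3 counts), of which 5 UMIs were left without the 22 members. Ccl3 stood at 52.2, 25.4 and 150 CPM (5.90-fold higher, 95% CI 4.17 to 8.60) and was 6.73-fold higher without those members. Tnf was 2.57-fold higher with 1 member holding 119 of 191 UMIs. Il1b was 2.47-fold higher with the 22 members and 1.43-fold without them. Lower were Ccl8 (2.29-fold, its UMIs in at most 14 members of a library) and Ccl5 at 1246, 1369 and 641 CPM (2.14-fold, 2.0 to 2.29).

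The list of immunosuppressive macrophage genes had 5 of 9 members higher and 2 lower with depletion (median 0.67). The myeloid receptor gene Trem1 was 9.66-fold (95% CI 3.61 to 36.5) higher, Thbs1 6.40-fold, Chil3 6.37-fold and the heme oxygenase gene Hmox1 2.61-fold (1.96 to 3.53). Arg1, the arginase gene, stood at 89.3, 185 and 123 CPM, with all 255 UMIs of the anti-CTLA-4 library in 8 members. Without the 22 members rich in S100a8 and S100a9, 3 of 8 were higher and 3 lower (median 0.26). Without members in which monocyte and macrophage markers exceeded microglia markers, 3 of 7 were higher and 1 lower (median 0.27). Thbs1 was then 1.07-fold, Arg1 1.92-fold and Hmox1 3.76-fold higher. Trem1 had 14 UMIs with depletion and 1 with anti-CTLA-4, and Chil3, itself among those markers, had 25 and 0.

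Cell cycle genes were higher with depletion in 13 of 15 members and lower in none (median 0.96). Birc5, encoding survivin, stood at 25.3, 12.4 and 55.8 CPM (4.51-fold higher, 95% CI 2.72 to 7.97), the microtubule regulator gene Stmn1 at 104, 41.4 and 173 (4.19-fold), the replication gene Mcm6 at 18.0, 6.54 and 20.5 (3.13-fold) and Hmgb2 at 182, 133 and 330 (2.48-fold). A Mki67 UMI was seen in 4.29%, 3.74% and 15.5% of members, and in 2.70%, 1.07% and 1.81% of members thinned to 1000 UMIs. Those thinned levels are near that of 1 UMI and give no order. Without the 22 members 12 of 14 were higher.

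Glycolysis genes were higher in 4 of 13 members and lower in 1 (median 0.50), with Gapdh at 1071, 875 and 1581 CPM (1.81-fold higher, 95% CI 1.69 to 1.93) and the hexokinase gene Hk2 at 476, 416 and 229 (1.81-fold lower, 1.61 to 2.04). Immediate-early genes, which can respond to tissue dissociation, were higher in 5 of 15 and lower in 3 (median 0.11). Dusp1 was 6.07-fold (3.36 to 12.1) and Ier2 2.62-fold higher, and the heat-shock gene Hspa1b 3.48-fold lower.

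Anti-CTLA-4 against IgG, which asks what the checkpoint antibody changed, gave few differences among rich microglia. The size rule was passed by 35 of 6318 genes upward (0.554%) and 39 downward (0.617%), and the median gene differed by 0.02 on the log2 scale. This comparison and the one above share the anti-CTLA-4 library. With the mean of per-cell CPM 73 genes passed upward and 102 downward.

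The largest increases held a group of S100 genes that rested on few cells. S100a6 was 3.16-fold (95% CI 2.46 to 4.09), S100a11 3.03-fold and S100a10 2.47-fold (1.71 to 3.63) higher with anti-CTLA-4, and the 10 highest members held 95.9%, 88.7% and 77.9% of their UMIs there. Monocyte markers summed to 354 CPM with IgG and 866 with anti-CTLA-4, with none of 8 at 0, and their part was not tested. Without members in which monocyte and macrophage markers exceeded microglia markers, S100a6 was 2.03-fold lower and S100a11 and S100a10 were 1.57-fold and 1.28-fold higher. The other large increases were as large without those members. They were those of the trafficking gene Rab6b (2.99-fold, 1.86 to 4.93, in 24.6% of members against 9.44%), Thrsp (2.93-fold, 21.9% against 8.16%), the mitochondrial kinase gene Pink1 (3.11-fold), Gpatch11 (2.82-fold) and Hspa1b (2.78-fold, 1.82 to 4.35).

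The largest decreases with anti-CTLA-4 were those of lipid and chemokine genes. Lpl, the lipoprotein lipase gene, stood at 87.6 CPM with IgG and 16.7 with anti-CTLA-4 (5.24-fold lower, 95% CI 3.37 to 8.51), and the monocyte chemokine gene Ccl7 at 111 and 26.2 (4.23-fold, 2.95 to 6.21). Spp1 was 3.07-fold (2.55 to 3.72) lower, the noncoding RNA Snhg9 4.44-fold, the lamin gene Lmnb1 3.8-fold, the condensin gene Smc2 3.14-fold, and the VEGF receptor gene Flt1 3.05-fold. Without members in which monocyte and macrophage markers exceeded microglia markers, Flt1 had 1 UMI against 62.

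Against a background of 8.14% of 8847 genes at least 1.5-fold higher and 7.92% lower, disease-associated, cell cycle, interferon-gamma and dissociation genes passed that limit in 1 direction and in none of their members in the other with anti-CTLA-4. Of 22 disease-associated genes 11 were lower and none higher (median -0.49), led by Lpl, Gpnmb (4.44-fold, 95% CI 2.08 to 10.9), Spp1 and the integrin gene Itgax (1.99-fold). With IgG 1 member held 25 of the 46 Gpnmb UMIs. Apoe was 1.5-fold (1.47 to 1.54) lower. Of 14 cell cycle genes 8 were lower and none higher (median -0.68), among them Stmn1 (2.52-fold, 1.87 to 3.46), Top2a (2.08-fold) and Birc5 (2.05-fold). Few cells carried these UMIs. Top2a was seen in 12 members with IgG, 1 holding 44 of 86 UMIs. With anti-CTLA-4 it was seen in 5, 1 holding 27 of 32. Stmn1 was seen in 44 members with IgG and 21 with anti-CTLA-4, and Birc5 in 15 with IgG. Of 26 interferon-gamma genes 7 were higher and none lower (median 0.31). The mean of per-cell CPM moved this median to 0.01. Cxcl10 was 1.96-fold (1.74 to 2.21), Serpina3g 1.81-fold, Ifi47 1.79-fold and Cxcl9 1.73-fold (1.61 to 1.86) higher. A Cxcl10 UMI was seen in 22.3% of members with IgG and 20.3% with anti-CTLA-4, and a Cxcl9 UMI in 29.2% and 27.3%. The 10 highest members held 79.9% and 83.2% of Cxcl10 UMIs, and 59.5% and 76.0% of Cxcl9 UMIs. Of 14 dissociation genes 4 were higher and none lower (median 0.32), with Hspa1b 2.78-fold, Ier2 1.92-fold (1.25 to 3.00) and Btg2 1.68-fold higher.

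Over all rich microglia the remaining lists had at most 4 members past 1.5-fold in either direction. Class II presentation beyond the rule had 1 of 14 members higher, H2-DMb2 at 33.1 and 70.5 CPM (2.13-fold, 95% CI 1.52 to 2.99), and none lower (median 0.26). Cd74 was 1.37-fold (1.34 to 1.39) and Ciita 1.15-fold (0.738 to 1.80) higher. Class I presentation had 0 of 22 past 1.5-fold either way (median 0.07), and homeostatic genes 2 of 23 higher and 1 lower (median 0.22). Costimulatory genes had 1 of 13 each way (0.06), receptor genes 0 of 8 (0.19), uptake genes 2 of 23 higher and 1 lower (-0.02), and complement 1 of 13 each way (-0.04). Of type I interferon genes 3 of 27 were lower (-0.20): Oas2 (2.32-fold, 1.40 to 4.0), Mx1 (1.86-fold) and Ifi44 (1.85-fold). With members of at least 10 microglia UMIs 11 of these 27 genes were lower and 0 higher (-0.56). Without members in which monocyte and macrophage markers exceeded microglia markers 9 were lower and 0 higher (-0.50). Cytokines had 4 of 20 lower, Ccl7, Ccl3, Ccl4 and Il1a, and 1 higher (-0.10). Of glycolysis genes 1 of 13 was higher (-0.13), and of immunosuppressive genes 1 of 7 was higher and 2 lower (-0.05).

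Cd74 and part of the interferon-gamma, disease-associated and cytokine genes were higher in rich than in poor microglia of the same tumor library. IgG and anti-CTLA-4 held 20 and 19 poor cells, so the depletion library (277 rich, 243 poor) carries this comparison, a choice made after those numbers were seen. Rich cells were deeper, with medians of 7278 and 4984 UMIs. The size rule was passed by 82 of 6175 genes upward (1.33%) and 36 downward (0.583%). Without members in which monocyte and macrophage markers exceeded microglia markers the upward count was 47.

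Cd74, not used by the rule but made with the chains, stood at 5289 CPM in rich and 481 in poor cells (11-fold higher, 95% CI 10.2 to 11.9). Cxcl9 stood at 242 and 48.3 CPM (5.02-fold, 3.89 to 6.56), the lymphocyte activation receptor gene Slamf7 at 22.9 and 1.44 (15.9-fold, 4.19 to 134), the aspartic protease gene Napsa at 56.6 and 9.37, Ifitm1 at 331 and 77.2 and Il1b at 126 and 27.4 (4.58-fold, 3.27 to 6.60). S100a9 and S100a8 were 8.08-fold and 5.04-fold higher. Without barcodes rich in S100a8 and S100a9 they were 1.29-fold and 1.68-fold lower. Cd74 was then 12.3-fold, Cxcl9 4.70-fold, Slamf7 32.6-fold, Napsa 7.93-fold, Ifitm1 5.41-fold and Il1b 3.66-fold higher. Without members in which monocyte and macrophage markers exceeded microglia markers, Napsa kept 8 of 141 (rich) and 3 of 13 (poor) UMIs. These are too few for a ratio. Under that filter Ifitm1 was 2.66-fold, Cxcl9 7.30-fold, Slamf7 26.8-fold and Il1b 4.8-fold higher, and Cd74 also stayed higher. The largest decreases were in genes of dividing cells and chromatin, Hist1h2ap (2.95-fold), Hist1h2ae (2.79-fold), Top2a (2.57-fold, 1.98 to 3.33) and the methyltransferase gene Suv39h1 (3.40-fold), and in Slc2a8, Sipa1l1, Ly6k and the homeostatic gene Ecscr (2.35-fold, 1.96 to 2.83).

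**Figure D5:**
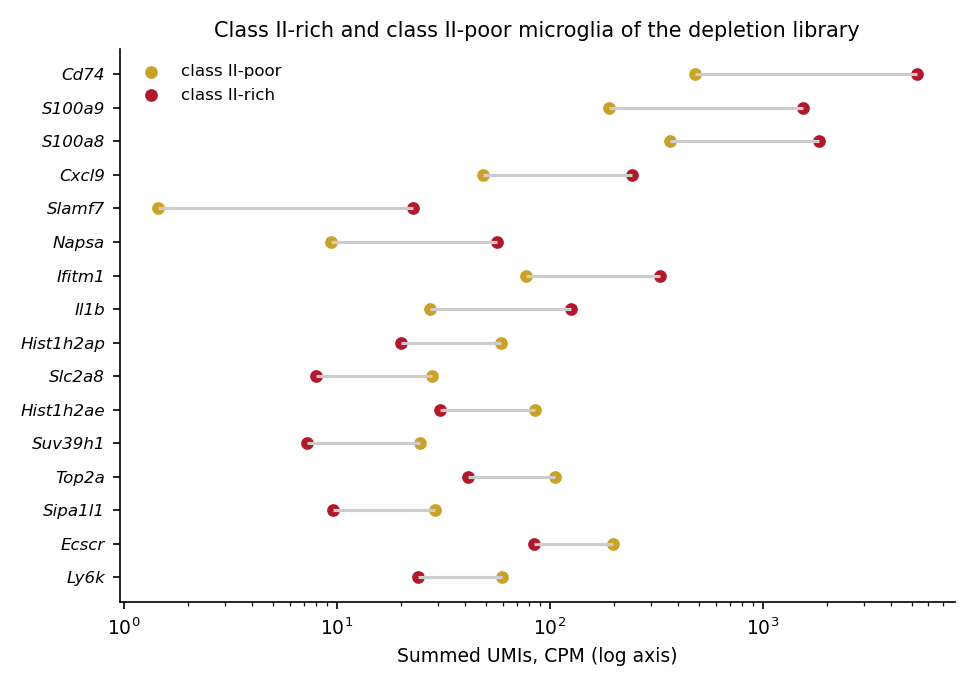
Levels (summed UMIs, CPM, log axis) in class II-rich (red) and class II-poor (yellow) microglia of the depletion library for the 8 genes with the largest increase and the 8 with the largest decrease. Cd74 spans 481 to 5289 CPM, and the decreases, from Hist1h2ap to Ly6k, span less than 4-fold.

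By list, against 8.18% of 8952 genes at least 1.5-fold higher and 9.22% lower with a median of -0.04, interferon-gamma genes had 10 of 25 higher and 1 lower in rich cells (median 0.49). Gbp4 was 3.19-fold (95% CI 1.83 to 5.95), the feedback inhibitor gene Socs1 2.03-fold and Gbp2 1.89-fold higher. Of 11 further class II genes 5 were higher, Cd74, H2-DMb2, H2-DMb1 (2.14-fold, 1.85 to 2.49), H2-Oa (1.75-fold) and H2-DMa (1.60-fold), and none lower (median 0.01). Of 22 disease-associated genes 8 were higher, with Itgax 4.30-fold (2.66 to 7.35), and 1, Spp1, was 1.79-fold (1.67 to 1.92) lower. Of 23 homeostatic genes 5 were lower, Ecscr, Ltc4s (1.82-fold), Fcrls (1.67-fold), Adgrg1 (1.64-fold) and Siglech (1.53-fold), and none higher (median -0.34). Class I presentation differed little, with 1 of 22 higher (0.21), and type I interferon genes had 0 of 27 higher and 4 lower (-0.06). Ifngr1 was 1.23-fold (1.12 to 1.35) lower, Mertk 1.0-fold and Axl 1.31-fold (1.07 to 1.62) higher.

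The other lists in rich against poor cells gave 7 of 22 cytokine genes higher and 2 lower (median 0.19), 6 of 10 immunosuppressive genes higher and 1 lower (0.73), 4 of 11 complement genes higher (0.15), 2 of 23 uptake genes higher, with the scavenger receptor gene Cd36 2.86-fold (95% CI 1.99 to 4.21), 2 of 15 costimulatory genes lower (-0.34), and 5 of 15 cell cycle genes lower and none higher (-0.43). Of glycolysis genes 3 of 13 were higher (0.36), of dissociation genes 2 of 15 (-0.16), and of receptor genes 0 of 8 passed 1.5-fold (-0.11). Chil3 was 3.46-fold higher in rich cells and 1.96-fold without members in which monocyte and macrophage markers exceeded microglia markers. Ccl8 had 99 UMIs in rich and 0 in poor cells (at least 18.4-fold), of which 1 member held 53.

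In all 3 tumor libraries 7 of 3847 genes passed the size rule upward in rich cells (0.182%) and 1 downward (0.026%). The 7 were Cd74, H2-DMb1, Cxcl9, Ccl5, Gbp4, Itgax and Wfdc17. Cd74 was 12.4-fold, 27.4-fold and 11-fold higher, Ccl5 7.56-fold, 52.7-fold and 2.66-fold, and H2-DMb1 3.25-fold, 2.03-fold and 2.14-fold. Cxcl9 was 58.7-fold, at least 33.0-fold and 5.02-fold higher, as poor cells of the anti-CTLA-4 library held none. Those cells also held no UMI of Gbp4 or Wfdc17, and poor cells of the IgG library held none of Itgax. The floor of 3 counts sets these ratios, at least 2.37-fold, 2.33-fold and 2.13-fold higher. The largest ratios of Cxcl9 and Ccl5 were taken against the 20 (IgG) and 19 (anti-CTLA-4) poor cells, so few counts carry them. The 1 lower gene was Pmp22, a membrane protein gene (2.90-fold, 2.75-fold and 2.0-fold), which lay at the limit with depletion.

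Among single rich cells thinned to 1000 UMIs, Cd74 followed the 3 chains most closely of 421 genes seen in at least 20% of cells. Its Spearman correlation with their sum was 0.69 in the IgG library (222 cells), 0.85 in the anti-CTLA-4 library (187) and 0.68 in the depletion library (276), given as a description since cells share a library, a depth and the rule. Next by the smallest of the 3 values were the interferon-induced RNA AW112010 (0.20, 0.23 and 0.20), H2-DMa (0.18, 0.38 and 0.19), Apoe (0.38, 0.22 and 0.15), Cd52 (0.15, 0.23 and 0.18), Ccl5 (0.35, 0.15 and 0.18) and H2-DMb1 (0.13, 0.33 and 0.18). Among the most opposed were Ltc4s (-0.18, -0.18 and -0.15), Fcrls (-0.20, -0.30 and -0.14) and Siglech (-0.21, -0.15 and -0.13). Summed over lists, further class II genes gave 0.51, 0.79 and 0.33, interferon-gamma genes 0.30, 0.38 and 0.16, and homeostatic genes -0.33, -0.38 and -0.20. Other lists reached values like those of interferon-gamma genes. Class I genes gave 0.17, 0.45 and 0.22, type I interferon genes 0.05, 0.41 and 0.15, and cytokine genes 0.21, 0.36 and 0.09. Disease-associated genes gave 0.32, 0.16 and 0.08, and monocyte-derived macrophage markers 0.29, 0.16 and 0.10. These values beyond Cd74 and the class II list are weak in sparse counts. The order of the 3 libraries and the order of cells within each were read separately.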

How the data were processed

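Sorted immune cells of 3 tumor groups and healthy brain were sequenced as 4 droplet libraries of mouse cells. The deposited values are UMI counts per gene and barcode, made by the authors with Cell Ranger 3.1.0 per the file headers and mm10 per the submitters' processing notes. The annotation release and aligner settings are not given in the sources used here. Of 27998 gene IDs 27645 matched GENCODE vM21, used for names and coordinates, and promoters came from RefSeq (GRCm38.p6).

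The filter of 200 genes or more and 10% mitochondrial UMIs or fewer left 1444 of 1484 with IgG, 1853 of 1874 with anti-CTLA-4, 3875 of 3916 with depletion and 1400 of 1420 in healthy brain. Total UMIs were 9952379, 13428840, 21471565 and 7950206. Members and gene lists were chosen with earlier results of these data known. UMIs were summed over cells of a class and library and scaled to CPM. Ratios carry exact conditional binomial 95% intervals and shares exact Clopper-Pearson intervals, which cover counting error only. With 1 library a group there was no test. A gene with 0 UMIs in 1 group was set at a floor of 3 counts over the group. The 17 rule and sex-linked genes stayed out of counts.

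Named genes were those past the size rule ranked 1 to 8, upward and downward, by log2 ratio after adding 5 to CPM. Sex-linked, unnamed, hemoglobin, mitochondrial, ribosomal, T cell receptor and immunoglobulin genes were not named. To these came 2 to 4 members of each list, the largest in ratio among those reaching 50 UMIs, and Ifngr1, Ciita, Cd74, Axl and Mertk at any value. Others were named after their values were seen, as the members behind a small count or as exceptions. The 15 pathway lists count members that reached 20 UMIs over the groups compared, and 14 marker lists checked cell types.

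Doublets were left in. Scrublet's own threshold marked 3, 3 and 12 tumor barcodes, under 0.5%, so the top 5% of scores were left out as an alternative, which took 20, 6 and 23 members. Calculations used python 3.11.15, numpy 2.4.6, scipy 1.17.1, scanpy 1.11.5, pandas 2.3.3 and matplotlib 3.10.9, and were tested on simulated counts. Alternatives changed the filters, cuts, doublets, depth, scaling, summing and size rule. A few genes that these rules would name or draw are not reported here.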

Additional observations from a re-analysis of the deposited data

How the results depend on the processing

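Alternatives chosen after seeing the data were at least 10 microglia UMIs, leaving out barcodes whose monocyte and macrophage markers exceeded microglia markers, leaving out barcodes with 10 or more S100a8 and S100a9 UMIs, all microglia without the class II cut, and the depletion library alone for rich against poor cells. No paired analysis was possible because each group holds 1 library, and for the same reason no library could be left out. The alternative on other lineages used 6 of 8 markers, as Trac and Trbc2 were not matched in the table. Causes of the changes below were not tested, apart from those that the alternatives' construction gives (fewer UMIs, or a wider or narrower limit).

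The share of rich cells with at least 10 class II UMIs was 85.4% with IgG and 41.9% with depletion, and the share with any class II UMI in 1000 was 95.4% and 60.0%. For anti-CTLA-4 against IgG, the counts of 35 genes upward and 39 downward became 178 and 176 with at least 20 UMIs and no minimum share, 73 and 102 when CPM was averaged over cells, 297 and 256 at 1.5-fold, and 6 and 10 in thinned cells. For depletion against anti-CTLA-4, 226 and 371 became 445 and 754, 357 and 229 with median-of-ratios scaling, 326 and 254 without ribosomal and mitochondrial genes in the total, 728 and 1227 at 1.5-fold, 77 and 76 in thinned cells, and 143 upward without the barcodes rich in S100a8 and S100a9. For rich against poor cells of the depletion library, 82 and 36 became 282 and 187, 320 and 352 at 1.5-fold, and 10 and 8 in thinned cells. The upward count was 47 without other-lineage carriers and 47 without barcodes high in monocyte and macrophage markers, and the downward count 91 when CPM was averaged over cells. In all 3 libraries 7 upward became 18 at 1.5-fold and 4 in thinned cells. The 1 downward gene became 28 at 1.5-fold, 10 with at least 20 UMIs, and 0 under each of 11 others (class II at 0.1% of UMIs, Scrublet, at least 10 microglia UMIs, at least 2000 UMIs, S100a8 and S100a9, averaged CPM, median-of-ratios, monocyte and macrophage markers, other lineages, ribosomal and mitochondrial genes, thinning).

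Among named genes, S100a6 reversed for anti-CTLA-4 against IgG to a log2 ratio of -0.51 with at least 10 microglia UMIs, -1.02 without barcodes high in monocyte and macrophage markers, -0.20 in thinned cells and -0.14 when CPM was averaged over cells. S100a11 reversed to -0.40 and -0.12 under the last 2, and S100a10 to -0.45 under the last. Cd24a reversed for depletion to -0.56 in thinned cells. In rich against poor cells S100a9 reversed to -0.13 without other-lineage carriers and -0.37 without barcodes rich in S100a8 and S100a9, and S100a8 to -0.41 and -0.75. The latter filter cuts on S100a8 and S100a9 themselves. No list median past 1.5-fold changed sign, but the immunosuppressive median for rich against poor fell from 0.73 to 0.04 in thinned cells. Medians short of it did under at least 1 alternative, with these extremes: for depletion, cytokines 0.65 (thinned) and dissociation -0.10 (averaged CPM); for anti-CTLA-4, uptake 0.11 (thinned) and immunosuppressive 0.08 (other lineages); for rich against poor, costimulation 0.05, type I interferon 0.17 and uptake 0.06 (all thinned), complement -0.04 (averaged CPM), receptor 0.01 (at least 10 class II UMIs) and class II beyond the rule -0.00022 (at least 2000 UMIs). The interferon-gamma median for depletion lay between -1.69 and -1.11 over 13 alternatives. Depth limits genes with few UMIs, such as Ciita, and the IgG and anti-CTLA-4 poor cells.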
